A study of Danio rerio with 21 samples.

Results

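The 63 genes described here are those listed for 2 sorted cell populations of the same zebrafish embryos as different between embryos injected with a *runx1* morpholino (MO) and non-injected embryos (Wt). They were found by taking every gene symbol present both in the table of MO-DP-R1hi against Wt-DP-R1hi, which held 676 genes, and in the table of MO-DN against Wt-DN, which held 176. The union of both tables was 789 genes, and 3064 genes were listed in any of the series' 3 tables. For each of the 63 genes the morpholino effect in one gate, MO minus Wt, was set against the effect in the other, beside the level difference between the gates in non-injected embryos.

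All embryos carried 2 transgenes, TgBAC(runx1P2:Citrine), in which *runx1* regulatory sequence from a bacterial artificial chromosome drives Citrine, and Tg(kdrl:mCherry), which marks endothelium. MO-DP-R1hi and Wt-DP-R1hi cells were positive for both reporters with high Citrine fluorescence, from embryos with and without the morpholino, and the labels give their tissue as haemogenic endothelium. MO-DN and Wt-DN cells were negative for both reporters, from embryos with and without the morpholino, and are labelled non-endothelial tissue. Embryos were 28 to 30 hours post fertilisation (hpf), each batch was divided into an injected and a non-injected portion, whole embryos were dissociated for sorting, and there were 3 libraries per group, 12 of the 21 in the series. The 12 libraries hold no group injected with a control morpholino, so an effect of *runx1* knock-down and an effect of injection cannot be told apart. Values of *runx1* itself were not analysed here.

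Runx1 is a DNA-binding factor required for blood stem cells to emerge from haemogenic endothelium, the cells of the floor of the dorsal aorta that turn into blood. At this age primitive red cells and primitive macrophages, made earlier and independently of the aorta, already circulate or wander through the embryo. Morpholinos are stable antisense oligomers that block splicing or translation, and in zebrafish many of them are known to switch on genes of the DNA damage response, which stop the cell cycle or start cell death. Measuring the same genes in a gate with both reporters and in a gate with neither asks whether both populations changed alike.

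The sequence of the morpholino is shown because every comparison below rests on it. It was designed against the junction of exon 1 and intron 1 of the transcript that starts at the P2 promoter. In the oligomer, 25 bases long, the capitals mark the complement of GTAAG, a common start of an intron, which occurs once, and in the strand that it pairs with the capitals mark GTAAG itself.
*runx1* MO: agcgctCTTACcgtatttggcgtcc
Target strand: ggacgccaaatacgGTAAGagcgct

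The deposited values are read counts scaled by library size (CPM) scaled together over the 12 libraries, and the mean log2 CPM that each table gives was identical for 63 of 63 genes. Taking the smallest step between values in a library as 1 read, effective library sizes were 9.72 to 14.9 M in MO-DP-R1hi, 15.0 to 17.6 M in Wt-DP-R1hi, 14.9 to 22.6 M in MO-DN and 12.7 to 20.6 M in Wt-DN, so that 3 reads corresponded to 0.133 to 0.309 CPM. Replicate libraries correlated with r between 0.951 and 0.992 across listed genes, which are not independent replicates. The study's methods describe independent experiments in which each clutch was divided into an injected and a non-injected part. These parts were then pooled across clutches by treatment. The labels do not tie a replicate number to an experiment. Both tables list only genes that the authors had called in these libraries, so a change within one gate is not evidence here. By limma 97.8% and 100% of the genes of the DP-R1hi and DN tables passed within their gate, and the groups did not overlap for 59 of the 63 genes in DP-R1hi (93.2% over that table) and for 63 of 63 in DN (98.9%). Of the endothelial genes that would check the gates, *kdrl*, *cdh5*, *tek* and *egfl7* were in neither table. In the separately normalised table of Wt-DP-R1hi against Wt-DP-R1lo, *kdrl* had 7.69 to 26.1 CPM in Wt-DP-R1hi and 78.7 to 194 CPM in Wt-DP-R1lo, the gate with both reporters but low Citrine, whereas *myb*, a factor of emerging blood stem cells, had 744 to 882 CPM in Wt-DP-R1hi and 141 to 172 CPM in Wt-DP-R1lo.

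Of the 63 genes, 42 differed between MO and Wt in the same direction in both gates, 32 of them higher in MO and 10 lower. The other 21 went in opposite directions. In 19 of these the MO level was above the Wt level in DP-R1hi and below it in DN, and in 2, *traf4a* and *mybbp1a*, it was the other way round. In all, 51 of the 63 were higher in MO-DP-R1hi than in Wt-DP-R1hi, against 421 of the 676 genes of that table, and 34 were higher in MO-DN than in Wt-DN, against 119 of 176. The median effect over the 63 genes was 1.24 in DP-R1hi and 0.89 in DN on the log2(CPM + 1) scale, which is the scale of every effect below and understates the change of low genes. A gene listed for one gate alone is not among the 63.

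**Figure D1:**
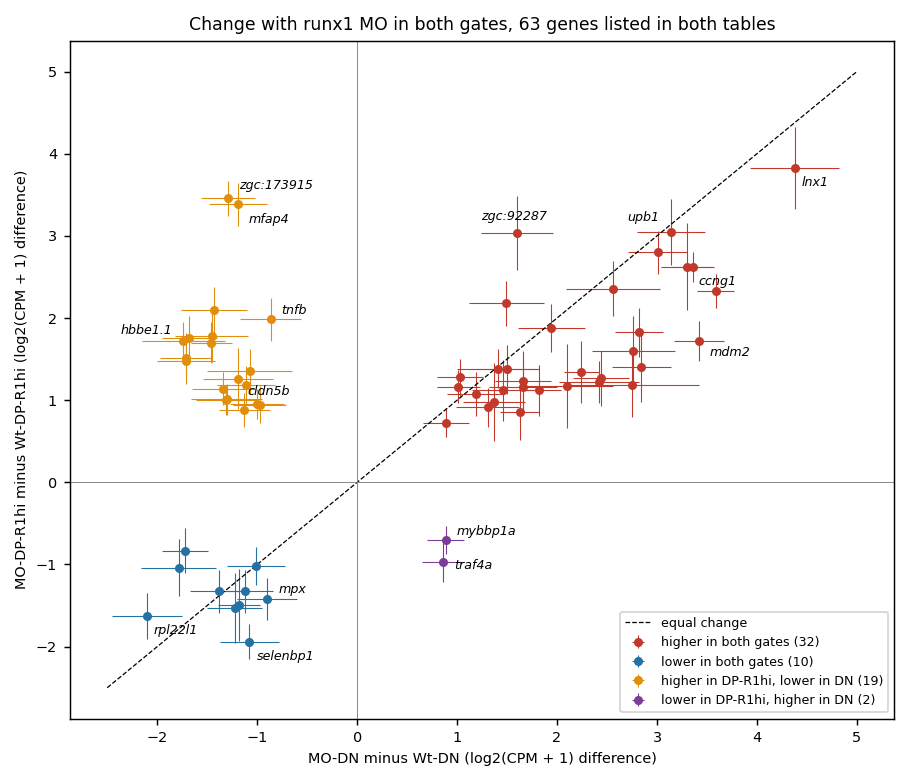
Each point is 1 of the 63 genes, placed by its difference in DN (horizontal axis) and in DP-R1hi (vertical axis), MO minus Wt on the log2(CPM + 1) scale, with standard errors from limma and the line of equal change dashed. The 32 genes higher in both gates lie mostly under the dashed line, and 19 genes form a separate cloud at the upper left, with values above 0 in DP-R1hi and below 0 in DN.

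The difference of the 2 effects, DP-R1hi minus DN, was estimated for each gene with limma over the 12 libraries, with Benjamini-Hochberg adjustment over the 789 genes of either table. It passed at an adjusted p under 0.05 for 23 of the 63 genes (36.5%), positive in 19 and negative in 4. For the 21 genes with opposite directions the listing in both tables already fixes the sign of the difference, so their differences are given as sizes with intervals and nothing is read from the pass. Among the 42 genes that moved the same way the difference passed for 2 (4.76%), *mdm2* among them, and 10 had an unadjusted p under 0.05. The spread that limma shares between genes came only from genes already called by the authors in these libraries. Intervals may therefore be too narrow and p-values too small, also for the level differences between the Wt gates.

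Haemoglobin genes were among the largest differences between the gates. Haemoglobin carries oxygen in red cells, and the embryonic globins are the most abundant mRNAs of primitive erythrocytes. The symbols of 10 of the 63 genes are on the list of erythroid and haem synthesis genes. All 10 were higher in MO-DP-R1hi than in Wt-DP-R1hi and lower in MO-DN than in Wt-DN, with a median effect of 1.33 in DP-R1hi and -1.37 in DN. Matched by symbol, 18 of the whole list of 37 genes were in the DP-R1hi table, all higher in MO, and 12 were in the DN table, all lower in MO. These counts leave out si:ch211-5k11.12, whose RefSeq name *hbbe1.3* is on the list and which moved the same way. Over all genes of each table, 61.4% were called higher in MO in DP-R1hi and 67.6% in DN.

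The beta-globin gene *hbbe1.1* had 47886, 37578 and 56991 CPM in MO-DP-R1hi, against 15376, 11458 and 14966 CPM in Wt-DP-R1hi. In DN it had 209, 189.6 and 105 CPM in MO-DN, against 479, 441 and 654 CPM in Wt-DN. The groups did not overlap in either gate, and the ratio of means was 3.41-fold in DP-R1hi and 0.32-fold in DN, a difference of effects of 3.44 (95% interval 2.65 to 4.23). The alpha-globin gene *hbae3* followed it closely. It had 49358, 37608 and 52778 CPM in MO-DP-R1hi, against 15279, 11922 and 15619 CPM in Wt-DP-R1hi, and in DN 212, 179 and 131 CPM in MO-DN, against 479, 440.3 and 500.1 CPM in Wt-DN, a difference of 3.16 (95% interval 2.55 to 3.78). The beta-globin gene *hbbe3* had 39281, 21900.5 and 47625 CPM in MO-DP-R1hi, against 13641, 10431 and 12416 CPM in Wt-DP-R1hi. The DN values were 205, 167 and 101 CPM in MO-DN, against 531, 425 and 553 CPM in Wt-DN, and the difference was 3.23 (95% interval 2.34 to 4.11). Expressed at lower level, *hbbe2* had 3358, 1606 and 3209 CPM in MO-DP-R1hi, against 681, 493 and 654 CPM in Wt-DP-R1hi. It had 14.7, 12.6 and 6.58 CPM in MO-DN, against 35.1, 23.2 and 35.5 CPM in Wt-DN, which with 3.53 (95% interval 2.58 to 4.49) was the largest difference on the erythroid list. The gene listed as si:ch211-5k11.12, which RefSeq names *hbbe1.3*, had 37819, 17795 and 28931 CPM in MO-DP-R1hi, against 10173, 5809.5 and 8113 CPM in Wt-DP-R1hi. DN cells had 224, 145 and 66.0 CPM in MO-DN, against 377, 354 and 338 CPM in Wt-DN, and the difference was 3.24 (95% interval 2.10 to 4.37). The globin-like pattern extended to zgc:163057, named *hbae4* by RefSeq, whose difference was 2.43 (95% interval 1.19 to 3.66) with levels of 232 to 483 CPM in MO-DP-R1hi, 105 to 165 CPM in Wt-DP-R1hi, 0.794 to 1.5 CPM in MO-DN and 2.04 to 8.72 CPM in Wt-DN. In RefSeq, *hbbe1.1*, *hbbe1.3* and *hbae3* lie on one chromosome within a few genes of one another, and *hbae4*, *hbbe3* and *hbbe2* are direct neighbours. These genes are close copies of one another, so the share of reads given to each one is uncertain, and they are not independent of one another.

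Enzymes that make or recycle haem showed the same opposite directions with smaller differences. *alas2*, the erythroid enzyme that starts haem synthesis, had 1920.4, 1623 and 1487 CPM in MO-DP-R1hi, against 879, 718 and 909 CPM in Wt-DP-R1hi. Its level in DN was 7.27, 8.14 and 5.00 CPM in MO-DN, against 13.6, 20.3 and 21.2 CPM in Wt-DN, a difference of 2.31 (95% interval 1.67 to 2.96). *hmbsb*, a later enzyme of the same pathway, had 969.5, 963 and 791 CPM in MO-DP-R1hi, against 475, 389 and 635 CPM in Wt-DP-R1hi. It had 7.67, 9.30 and 9.57 CPM in MO-DN, against 21, 19.5 and 20.9 CPM in Wt-DN, and the difference was 2.01 (95% interval 1.44 to 2.59). *blvrb*, a biliverdin reductase, had 818, 638 and 896 CPM in MO-DP-R1hi, against 437, 241 and 376 CPM in Wt-DP-R1hi. The negative gate had 4.64, 4.29 and 3.92 CPM in MO-DN, against 12.7, 11.4 and 7.78 CPM in Wt-DN, which gave 2.30 (95% interval 1.56 to 3.04). *tspo*, a mitochondrial membrane protein that binds porphyrins, had 795, 619 and 872 CPM in MO-DP-R1hi, against 421, 347 and 401 CPM in Wt-DP-R1hi. Its DN values were 18.8, 18.3 and 11.7 CPM in MO-DN, against 34.7, 26.9 and 37.9 CPM in Wt-DN, for 1.95 (95% interval 1.31 to 2.60), the smallest difference of the 10 erythroid genes. In every one of these 4 genes the MO and Wt libraries of each gate were separate.

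Red cell proteins outside haem synthesis behaved likewise. *cahz*, a carbonic anhydrase of zebrafish blood cells, had 3888, 2908 and 3078 CPM in MO-DP-R1hi, against 1381, 972 and 1203 CPM in Wt-DP-R1hi. In DN it had 13.2, 9.69 and 7.24 CPM in MO-DN, against 38.1, 27.6 and 38.5 CPM in Wt-DN, a difference of 3.19 (95% interval 2.52 to 3.86). *rhd*, a Rhesus blood group protein, had 445, 355 and 406 CPM in MO-DP-R1hi, against 226, 157 and 219 CPM in Wt-DP-R1hi. It had 2.35, 1.37 and 0.467 CPM in MO-DN, against 3.38, 4.18 and 6.75 CPM in Wt-DN, with 2.31 (95% interval 1.38 to 3.25). The MO-DN levels of *rhd* were between 0.467 and 2.35 CPM, a few times the value of 3 reads.

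The 10 erythroid genes matched by symbol, without the globin genes si:ch211-5k11.12 and zgc:163057, together took 10.6 to 16.8% of all CPM in the MO-DP-R1hi libraries. They took 3.71 to 4.88% in the Wt-DP-R1hi libraries. In DN they took 0.0382 to 0.0695% in MO and 0.144 to 0.188% in Wt. The same genes were therefore at a median ratio of 2.5 in DP-R1hi and 0.365 in DN, MO over Wt. The median gap between the gates was 7.77 in MO and 4.82 in Wt on the log2 scale, an order that the listing in opposite directions fixes for genes higher in Wt-DP-R1hi. Entry to DP-R1hi required kdrl:mCherry and high Citrine, and entry to DN required the absence of both reporters. The study describes lasting Citrine in primitive red cells. The effect of either gate on these cells was not tested. How many red cells either gate held was not measured, and fewer cells of a type and less RNA per cell cannot be told apart in bulk samples. Leaving the listed erythroid genes out of the scaling of every library, the lowest of the 19 positive differences was 2.08, against 1.92 with the deposited scaling. This raised all levels by log2 factors of 0.175 to 0.283 in MO-DP-R1hi and 0.0609 to 0.0804 in Wt-DP-R1hi, and hardly in DN. The positive differences could therefore only grow, and nothing is read from this scaling. Within the groups, Wt-DP-R1hi replicate 2 had the lowest value of its group for 10 of 10 erythroid genes, MO-DP-R1hi replicate 2 for 8 and MO-DN replicate 3 for 9.

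Genes of macrophages gave the 2 largest differences of all 63. *mfap4*, a marker of zebrafish macrophages which RefSeq names *mfap4.1*, had 459.6, 459 and 415 CPM in MO-DP-R1hi, against 61.7, 27.9 and 42.1 CPM in Wt-DP-R1hi. The DN values were 2.83, 2.04 and 2.33 CPM in MO-DN, against 6.31, 5.15 and 9.27 CPM in Wt-DN. The means stood 10.1-fold apart in DP-R1hi with MO higher and 2.88-fold apart in DN with MO lower, a difference of 4.57 (95% interval 3.70 to 5.44). zgc:173915, which is *mfap4.2* in RefSeq and the direct neighbour of *mfap4.1*, had 256, 359 and 301 CPM in MO-DP-R1hi, against 31.0, 21.7 and 28.1 CPM in Wt-DP-R1hi. It had 2.22, 2.66 and 1.54 CPM in MO-DN, against 5.92, 6.46 and 7.46 CPM in Wt-DN, and its difference was 4.75 (95% interval 4.0 to 5.49). These 2 genes may share reads, so they count as a pair of copies and not as separate evidence. *tnfb*, a tumour necrosis factor gene of inflammatory signalling, had 473, 264 and 378 CPM in MO-DP-R1hi, against 124, 84.8 and 70.7 CPM in Wt-DP-R1hi. DN cells had 5.65, 3.01 and 2.85 CPM in MO-DN, against 7.38, 6.61 and 8.72 CPM in Wt-DN, for 2.85 (95% interval 1.96 to 3.74). All DN values of *mfap4*, zgc:173915 and *tnfb* were 9.27 CPM or less, so their fold changes there rest on low levels.

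The neutrophil gene *mpx*, myeloperoxidase, did not share this pattern. It had 1339, 2296 and 1312 CPM in MO-DP-R1hi, against 4376, 5073 and 3466 CPM in Wt-DP-R1hi. Its level in DN was 4.58, 6.29 and 4.53 CPM in MO-DN, against 9.77, 8.02 and 14.0 CPM in Wt-DN. The MO level was the lower one in both gates, and the difference of effects, -0.52 (95% interval -1.28 to 0.24), did not pass (adjusted p = 1, limma). Called higher in MO were 61.4% of all genes of the DP-R1hi table and 67.6% of the DN table. Of the 23 genes on the myeloid and inflammatory list, 9 were in the DP-R1hi table, 7 higher and 2 lower in MO, and 4 in the DN table, all 4 lower. The 3 that were in both tables summed to 2106 to 3020 CPM in MO-DP-R1hi and 3578 to 5186 CPM in Wt-DP-R1hi, a sum dominated by *mpx*, and to 9.71 to 13.1 CPM in MO-DN and 19.8 to 32.0 CPM in Wt-DN.

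**Figure D2:**
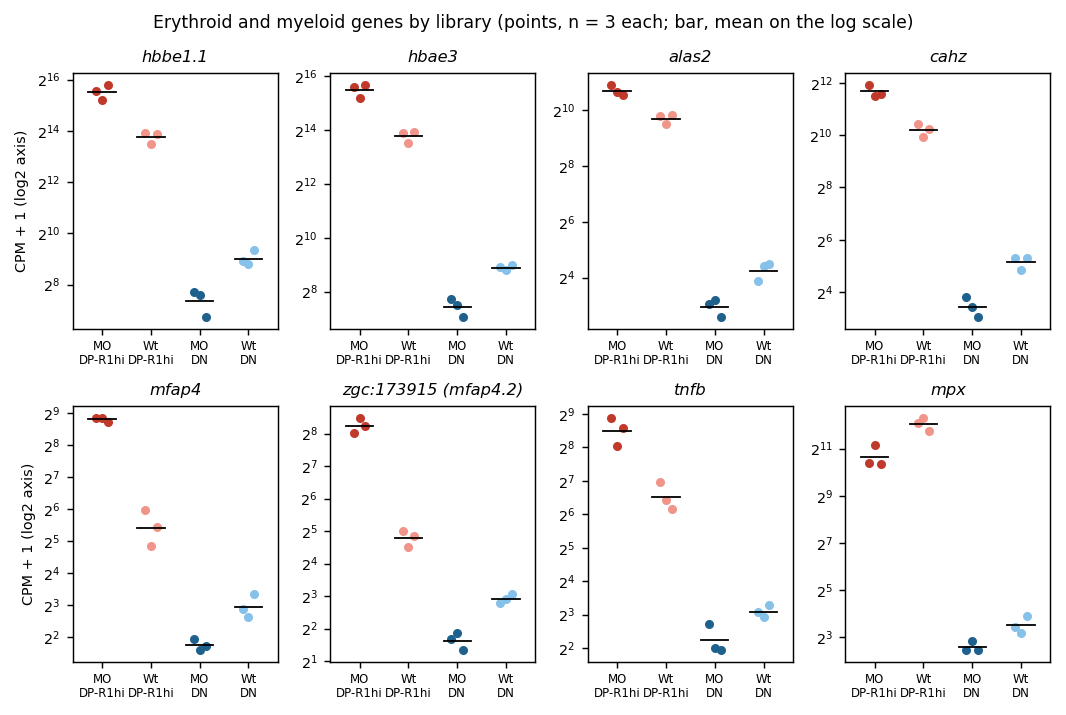
CPM + 1 on log2 axes for 4 erythroid genes (*hbbe1.1*, *hbae3*, *alas2*, *cahz*) and 4 myeloid genes (*mfap4*, zgc:173915, *tnfb*, *mpx*), each point 1 library (n = 3 per group) and each bar the mean on the log scale. In 7 of the panels MO lies above Wt in DP-R1hi and below it in DN, and in that of *mpx* MO lies below Wt in both gates.

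Among the remaining genes of this direction, *nmt1b*, an N-myristoyltransferase, had 723, 554 and 601 CPM in MO-DP-R1hi, against 300.5, 224 and 331 CPM in Wt-DP-R1hi. The negative gate had 2.62, 1.68 and 1.45 CPM in MO-DN, against 6.15, 4.33 and 9.11 CPM in Wt-DN, a difference of 2.48 (95% interval 1.69 to 3.27). *rfesd*, a Rieske iron-sulfur protein, had 315, 261 and 423 CPM in MO-DP-R1hi, against 190.4, 136 and 187 CPM in Wt-DP-R1hi. It had 1.28, 0.797 and 0.514 CPM in MO-DN, against 2.85, 1.94 and 3.14 CPM in Wt-DN, and its difference of 1.92 (95% interval 1.12 to 2.72) was the smallest of the 19. The values of both genes in DN were 9.11 CPM or less, so their fold changes there rest on low levels. MGC173646, which no table used here annotates, had 1663, 1149.8 and 2166 CPM in MO-DP-R1hi, against 498, 447 and 513 CPM in Wt-DP-R1hi. In DN it had 5.38, 4.25 and 9.29 CPM in MO-DN, against 32.7, 11.9 and 28.7 CPM in Wt-DN, a difference of 3.46 (95% interval 2.41 to 4.52). *cldn5b*, which codes for a claudin of endothelial tight junctions, had 59.3, 23.0 and 34.8 CPM in MO-DP-R1hi, against 12.4, 11.7 and 21.1 CPM in Wt-DP-R1hi. It had 1.35, 0.398 and 2.15 CPM in MO-DN, against 4.77, 2.62 and 4.87 CPM in Wt-DN, a difference of 2.45 (95% interval 1.21 to 3.70) with an adjusted p of 0.0309 (limma). It was the 1 endothelial gene of the 63. Of the 33 genes on the endothelial list, 10 were in the DP-R1hi table of 676 genes, 8 higher and 2 lower in MO. Only *cldn5b*, lower in MO, was in the smaller DN table of 176 genes. Called higher in MO were 61.4% of all genes of the DP-R1hi table and 67.6% of the DN table. For *cldn5b* and zgc:163057 the listing fixes the sign, so nothing is read from the pass or from its loss. With single libraries left out their differences stayed within 2.11 to 2.77 and 1.88 to 2.72. The pass ended in 8 and 7 of the 12 cases (limma). For *cldn5b* these were replicates 1 and 3 of MO-DP-R1hi, 1 and 2 of Wt-DP-R1hi, 1 and 2 of MO-DN and 1 and 3 of Wt-DN, with adjusted p-values of 0.0568 to 0.112, and for zgc:163057 replicates 1 and 3 of MO-DP-R1hi, 1, 2 and 3 of Wt-DP-R1hi and 1 and 3 of MO-DN, with 0.0568 to 0.121.

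The 2 genes with the reverse pattern were lower in MO-DP-R1hi and higher in MO-DN. *traf4a*, an adaptor of tumour necrosis factor receptor signalling, had 17.5, 14.7 and 16.7 CPM in MO-DP-R1hi, against 33.6, 30.1 and 35.1 CPM in Wt-DP-R1hi. The DN values were 59.5, 72.1 and 85.6 CPM in MO-DN, against 36.8, 45.4 and 35.7 CPM in Wt-DN. Groups were separate in both gates and the difference of effects was -1.83 (95% interval -2.45 to -1.22). *mybbp1a*, a nucleolar protein that in mammals binds Myb, had 168, 163 and 162 CPM in MO-DP-R1hi, against 226, 287 and 297 CPM in Wt-DP-R1hi. It had 154, 139 and 167 CPM in MO-DN, against 70.4, 93.7 and 84.2 CPM in Wt-DN, and the difference was -1.59 (95% interval -2.08 to -1.09). Levels of *mybbp1a* were 3.26-fold higher in Wt-DP-R1hi than in Wt-DN, whereas the MO gates stood at a ratio of 1.07. It was 1 of 8 ribosome and nucleolus genes in the DN table, 7 of them higher in MO, and 1 of 2 in the DP-R1hi table, both lower. Across all genes of these tables, 67.6% in DN and 61.4% in DP-R1hi were called higher in MO.

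The DNA damage response genes were higher in MO in both gates, and all 7 had the smaller effect in DP-R1hi, except that *phlda3* changed order at a pseudocount of 0.25 and with limma's voom on reads recovered from the CPM values, an alternative chosen after seeing the data. Their median effect was 1.72 in DP-R1hi and 2.84 in DN, and the median difference was -1.0, beside -0.46 over the 32 genes higher in both gates, which include these, and -0.12 over all 63 genes. Of 33 genes on this list, 12 were in the DP-R1hi table, 10 higher and 2 lower in MO, and 10 in the DN table, all higher. Over all genes, 61.4% of the DP-R1hi table and 67.6% of the DN table were called higher in MO. The summed level of the 7 shared genes was 1833 to 2904 CPM in MO-DP-R1hi and 408 to 436 CPM in Wt-DP-R1hi, and in DN 3001 to 4247 CPM in MO and 354 to 385 CPM in Wt. The sums, dominated by *ccng1*, did not overlap between the gates in MO, with DN higher, or in Wt, with DP-R1hi higher. By gene, the MO gates did not overlap for 4 of the 7, against 49 of the 63 genes. *mdm2* and *sesn3* had the higher mean in MO-DP-R1hi. The list was chosen with earlier results of these data known, and the difference passed for 1 of the 7.

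*mdm2* codes for a ubiquitin ligase and is switched on after DNA damage. It had 306, 221 and 155 CPM in MO-DP-R1hi, against 68.9, 69.5 and 59.8 CPM in Wt-DP-R1hi. Its level in DN was 227, 149 and 170.0 CPM in MO-DN, against 14.1, 21.7 and 12.9 CPM in Wt-DN. The ratios of means, MO over Wt, were 3.44 in DP-R1hi and 11.2 in DN, and the difference, -1.70 (95% interval -2.49 to -0.91), passed (adjusted p = 0.0154, limma). Between the Wt gates *mdm2* was 4.07-fold higher in Wt-DP-R1hi (adjusted p = 8.32e-05, limma), and its levels in the MO gates overlapped, at a ratio of 1.25.

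This call depended on the number of tests adjusted for and on single libraries. The main adjustment counts only genes of either table, which the authors had already called. With adjustment over 30000 tests the *mdm2* difference did not pass (adjusted p = 0.587, limma). It passed with the replicate number as a block (adjusted p = 0.00428, limma), a number that the labels do not tie to an experiment. With single libraries left out, the call ended without Wt-DP-R1hi replicate 1 (adjusted p = 0.0593) or Wt-DP-R1hi replicate 2 (0.0546). It also ended without MO-DN replicate 1 (0.0524) or Wt-DN replicate 1 (0.0552), all by limma. Over all single omissions of a library the *mdm2* difference stayed between -1.95 and -1.46.

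*ccng1*, cyclin G1, was the most abundant of the 7. It had 2398, 1784 and 1582 CPM in MO-DP-R1hi, against 320.5, 305 and 295 CPM in Wt-DP-R1hi. The negative gate had 3651, 3010.3 and 2519.6 CPM in MO-DN, against 319, 291 and 276 CPM in Wt-DN. Wt levels in the gates were nearly equal, the ratios of MO to Wt were 6.26 and 10.4 in DP-R1hi and DN, and the difference was -0.73 (95% interval -1.28 to -0.19, unadjusted p = 0.0125, adjusted p = 0.410, limma). *cdkn1a*, the inhibitor p21 that halts the cell cycle, had 7.93, 13.5 and 9.26 CPM in MO-DP-R1hi, against 4.13, 5.08 and 1.31 CPM in Wt-DP-R1hi. It had 28.2, 48.1 and 47.9 CPM in MO-DN, against 4.85, 4.37 and 5.03 CPM in Wt-DN, with a difference of -1.44 (95% interval -2.58 to -0.30, adjusted p = 0.498, limma), which passed only without Wt-DP-R1hi replicate 3 (0.0489). All 3 MO-DN values of *cdkn1a* were above all 3 MO-DP-R1hi values.

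Of the pro-apoptotic and stress genes of the list, *bbc3*, *foxo3b* and *phlda3* had intervals that included 0. *bbc3*, which codes for the cell death protein Puma, had 17.6, 12.4 and 8.03 CPM in MO-DP-R1hi, against 3.73, 1.63 and 5.45 CPM in Wt-DP-R1hi. In DN it had 21.1, 21.1 and 17.1 CPM in MO-DN, against 2.46, 0.583 and 4.16 CPM in Wt-DN, a difference of -1.16 (95% interval -2.53 to 0.21). *sesn3*, a sestrin induced by stress, had 114, 79.0 and 55.3 CPM in MO-DP-R1hi, against 21.8, 17.2 and 27.2 CPM in Wt-DP-R1hi. It had 83.4, 75.0 and 77.5 CPM in MO-DN, against 7.77, 11.7 and 11.8 CPM in Wt-DN, so that the MO levels of the gates were alike in mean (ratio 1.05) above Wt levels that stood 2.12-fold apart, and the difference was -1.0 (95% interval -1.83 to -0.17). *foxo3b*, a forkhead factor of stress and survival signalling, had 37.5, 35.8 and 17.6 CPM in MO-DP-R1hi, against 14.9, 13.1 and 19.0 CPM in Wt-DP-R1hi. It had 102, 105 and 90.9 CPM in MO-DN, against 26.4, 35.4 and 33.3 CPM in Wt-DN, with -0.77 (95% interval -1.61 to 0.06). Its MO and Wt values overlapped in DP-R1hi. *phlda3*, which in mammals restrains Akt, had 22.8, 7.23 and 5.56 CPM in MO-DP-R1hi, against 1.87, 0.314 and 0.454 CPM in Wt-DP-R1hi. The DN values were 134, 100.1 and 77.6 CPM in MO-DN, against 10.4, 7.39 and 10.7 CPM in Wt-DN. Its ratio of means was 13.5 in DP-R1hi, where the Wt values were below 2 CPM, and 10.9 in DN, so the order of the gates depended on the scale, with a difference of -0.68 (95% interval -2.06 to 0.70) at a pseudocount of 1 and 0.00544 at a pseudocount of 0.25.

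**Figure D3:**
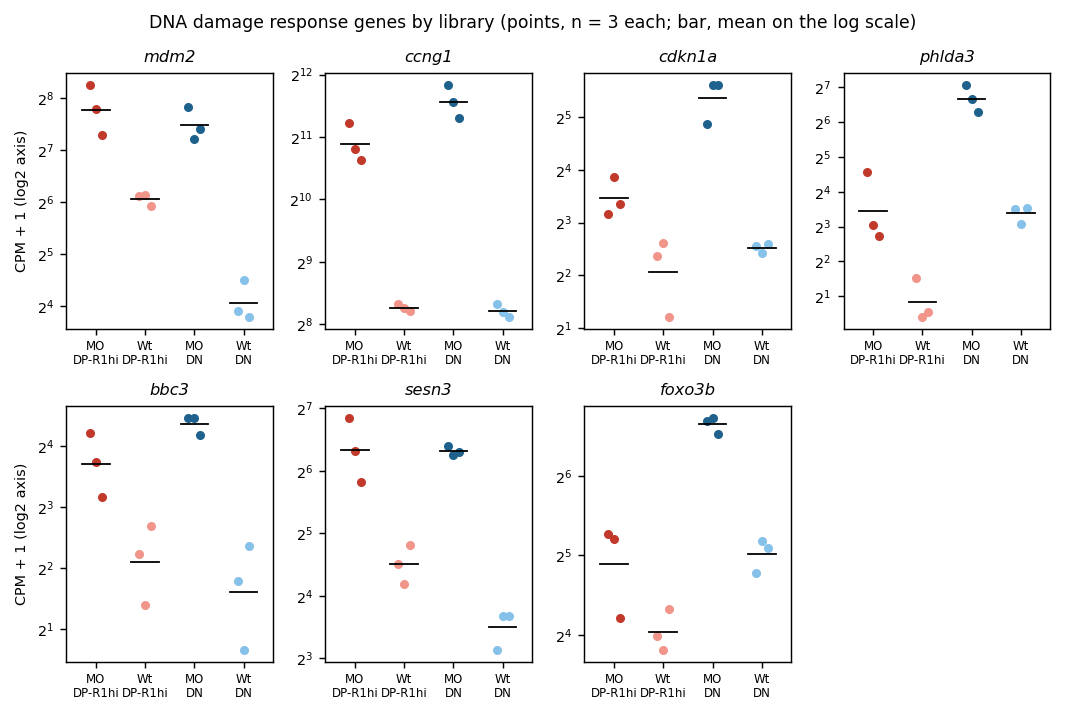
CPM + 1 on log2 axes for the 7 DNA damage response genes listed for both gates, each point 1 library (n = 3 per group) and each bar the mean on the log scale. The MO libraries lie above the Wt libraries in both gates except for an overlap of *foxo3b* in DP-R1hi, and the step between MO and Wt is taller in DN in all 7 panels.

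MO-DP-R1hi replicate 1 had the highest value of its group for 6 of the 7 DNA damage response genes and for 28 of the 32 genes that were higher in both gates, and MO-DN replicate 1 for 5 of 7 and 21 of 32. Without MO-DP-R1hi replicate 1 the difference of *mdm2* was further from 0 and its adjusted p was 0.00361 (limma). The order of the gates in the wider group was less firm. Of the 32 genes higher in both gates, 28 had the smaller effect in DP-R1hi, but 22 did when the erythroid genes were left out of the scaling, which moved the median difference over the 63 genes to 0.05 (-0.12 with the deposited scaling), 20 when a pair of further globin genes was left out too, and between 24 and 28 did when single libraries were left out. The DNA damage response genes were 7 of 7 under both scalings and under every omission of a library.

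Stress genes outside that list were also higher in both gates. Of 17 genes on the stress and immediate early list, 5 were in the DP-R1hi table and 4 in the DN table, all higher in MO, and 4 were shared. The shares called higher over these whole tables were 61.4% and 67.6%. *hsp90aa1.1*, a chaperone gene used strongly in developing zebrafish muscle, had 35.9, 17.5 and 24.7 CPM in MO-DP-R1hi, against 11.5, 7.72 and 13.5 CPM in Wt-DP-R1hi. DN cells had 531, 220.2 and 384 CPM in MO-DN, against 85.9, 97.0 and 167 CPM in Wt-DN, and the difference of effects was -0.50 (95% interval -1.58 to 0.57). *atf5a*, which codes for a bZIP factor of the integrated stress response, had 38.2, 39.3 and 28.0 CPM in MO-DP-R1hi, against 9.46, 6.59 and 10.6 CPM in Wt-DP-R1hi. It had 8.28, 16.9 and 9.67 CPM in MO-DN, against 1.69, 3.01 and 1.89 CPM in Wt-DN, and its effects in the gates were nearly equal, with a difference of -0.06 (95% interval -1.04 to 0.91). *fosl1a*, a subunit of the AP-1 factor, differed by -1.20 (95% interval -2.31 to -0.10), with 70.8 to 105 CPM in MO-DP-R1hi, 29.3 to 45.6 CPM in Wt-DP-R1hi, 31.3 to 105 CPM in MO-DN and 9.38 to 13.5 CPM in Wt-DN. It did not pass (adjusted p = 0.903, limma), but without MO-DN replicate 2 the difference was -1.71 and passed (adjusted p = 0.0205). *mycb*, a Myc factor of growth control, differed by 0.15 (95% interval -0.46 to 0.77).

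Genes outside the lists also had large effects in both gates. *lnx1*, a ubiquitin ligase, was at 17.8 to 58.9 CPM in MO-DP-R1hi and 0.377 to 2.40 CPM in Wt-DP-R1hi, and at 42.3 to 135 CPM in MO-DN and 1.81 to 5.06 CPM in Wt-DN. Its means were 25.8-fold higher in MO-DP-R1hi and 28.4-fold higher in MO-DN, the widest ratios of the 63 genes in both gates, and the difference was -0.55 (95% interval -2.12 to 1.02). *upb1*, an enzyme of pyrimidine breakdown, had 25.0, 11.9 and 10.1 CPM in MO-DP-R1hi, against 1.33, 0.628 and 0.738 CPM in Wt-DP-R1hi. Its level in DN was 46.7, 41.2 and 44.1 CPM in MO-DN, against 7.23, 3.6 and 2.51 CPM in Wt-DN. The effects on the log2 scale were 3.05 ± 0.40 (SE) in DP-R1hi and 3.14 ± 0.34 (SE) in DN, a difference of -0.09 (95% interval -1.25 to 1.06). *fam160b1* was at 51.0 to 67.5 CPM in MO-DP-R1hi and 6.36 to 8.53 CPM in Wt-DP-R1hi, and at 35.7 to 45.8 CPM in MO-DN and 2.75 to 5.10 CPM in Wt-DN, and *bmb*, brambleberry, which acts in nuclear fusion in early zebrafish embryos, was at 10.9 to 19.6 CPM in MO-DP-R1hi and 1.95 to 2.44 CPM in Wt-DP-R1hi, and at 18.8 to 23.1 CPM in MO-DN and 0.692 to 6.36 CPM in Wt-DN. For these 2 genes the differences were -0.21 (95% interval -1.0 to 0.59) and -0.20 (95% interval -1.52 to 1.11). The intervals of all 4 genes include 0, and those of *lnx1*, *upb1* and *bmb* reach past 1 on both sides, so equal responses of the gates are not shown.

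Further genes with nearly the same effect in both gates were picked by their small difference, which is therefore a description. zgc:158257, named *dele1* by RefSeq, a gene whose human counterpart relays mitochondrial stress, had 68.2, 49.7 and 37.9 CPM in MO-DP-R1hi, against 22.4, 21.4 and 26.9 CPM in Wt-DP-R1hi. The negative gate had 22.7, 19.2 and 20.2 CPM in MO-DN, against 6.08, 10.6 and 9.35 CPM in Wt-DN, for -0.12 (95% interval -0.93 to 0.70). *trim35-7*, a tripartite motif gene, had 72.2, 57.5 and 58.6 CPM in MO-DP-R1hi, against 18.3, 27.6 and 25.0 CPM in Wt-DP-R1hi. It had 8.88, 5.00 and 7.56 CPM in MO-DN, against 2.85, 0.583 and 3.46 CPM in Wt-DN, for -0.02 (95% interval -1.15 to 1.1). With *atf5a*, these genes were higher in DP-R1hi than in DN in MO and in Wt alike, so that changes of similar estimated size started from different levels. *itpa*, which clears inosine triphosphate, had 27.7, 24.9 and 38.1 CPM in MO-DP-R1hi, against 69.2, 58.2 and 57.1 CPM in Wt-DP-R1hi. In DN it had 33.6, 24.5 and 21.3 CPM in MO-DN, against 64.1, 36.2 and 65.7 CPM in Wt-DN, for -0.01 (95% interval -0.82 to 0.80). *pbx2*, a TALE homeodomain factor, had 15.5, 25.8 and 23.3 CPM in MO-DP-R1hi, against 53, 63.5 and 47.2 CPM in Wt-DP-R1hi. It had 22.6, 48.8 and 46.4 CPM in MO-DN, against 86.3, 102 and 108 CPM in Wt-DN, for 0.06 (95% interval -0.81 to 0.92). Both of these were lower in MO in both gates.

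Of the 32 genes higher in both gates, 4 had the larger effect in DP-R1hi, namely zgc:92287 (*lemd1* in RefSeq), *phlda2*, *stx18* and *mycb*. zgc:92287 was at 19.4 to 32.5 CPM in MO-DP-R1hi and 0.565 to 4.03 CPM in Wt-DP-R1hi, and at 9.95 to 20.4 CPM in MO-DN and 2.75 to 5.46 CPM in Wt-DN. Its difference was 1.44 (95% interval 0.11 to 2.76) with an unadjusted p of 0.0355 and an adjusted p of 0.903 (limma). *phlda2*, which codes for a small PH domain protein, was at 383 to 900.5 CPM in MO-DP-R1hi and 122 to 143 CPM in Wt-DP-R1hi, and at 50.9 to 114 CPM in MO-DN and 14.1 to 30.1 CPM in Wt-DN, with 0.69 (95% interval -0.42 to 1.79). *stx18*, a syntaxin of the endoplasmic reticulum, differed by 0.25 (95% interval -0.43 to 0.93). None of the 4 passed.

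The other genes given here as higher in both gates had smaller effects in DP-R1hi, and none of their differences passed. The widest were those of *foxi1*, a forkhead factor of ionocytes and the inner ear, at 1.65 to 2.35 CPM in MO-DP-R1hi and 0 to 1.07 CPM in Wt-DP-R1hi, and at 21.7 to 38.7 CPM in MO-DN and 0.236 to 10.5 CPM in Wt-DN, and of *mat2al*, a methionine adenosyltransferase, at 17.4 to 35.5 CPM in MO-DP-R1hi and 7.40 to 11.8 CPM in Wt-DP-R1hi, and at 38.9 to 61.0 CPM in MO-DN and 6.60 to 10.1 CPM in Wt-DN. The difference was -1.56 (95% interval -3.43 to 0.30) for *foxi1*, which was listed at 0 in 1 Wt-DP-R1hi library, and -1.17 (95% interval -2.10 to -0.25) for *mat2al* (unadjusted p = 0.0169, limma). *mmp2*, a matrix protease, was at 31.3 to 76.3 CPM in MO-DP-R1hi and 11.9 to 26.0 CPM in Wt-DP-R1hi, and at 207 to 240.3 CPM in MO-DN and 41.4 to 50.0 CPM in Wt-DN, with -0.90 (95% interval -1.85 to 0.05). *rhoub*, a small GTPase, and *tspan18a*, a tetraspanin, had overlapping MO and Wt values in DP-R1hi, and differed by -0.93 (95% interval -2.56 to 0.70) and -0.39 (95% interval -1.70 to 0.92). *pik3r3a*, a regulatory subunit of phosphoinositide 3-kinase, differed by -0.70 (95% interval -1.55 to 0.14). The remaining 5 of the genes given here, zgc:123335 (*mrnip* in RefSeq), *enpp1*, *gpd1a*, *acss1* and *ubtd1b*, had differences between -0.42 and -0.13. Of these, *gpd1a*, a glycerol-3-phosphate dehydrogenase, had 2.19, 3.15 and 3.70 CPM in MO-DP-R1hi, against 0.333, 1.32 and 0.966 CPM in Wt-DP-R1hi. The DN values were 32.6, 16.2 and 21.7 CPM in MO-DN, against 8.23, 6.51 and 8.17 CPM in Wt-DN.

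**Figure D4:**
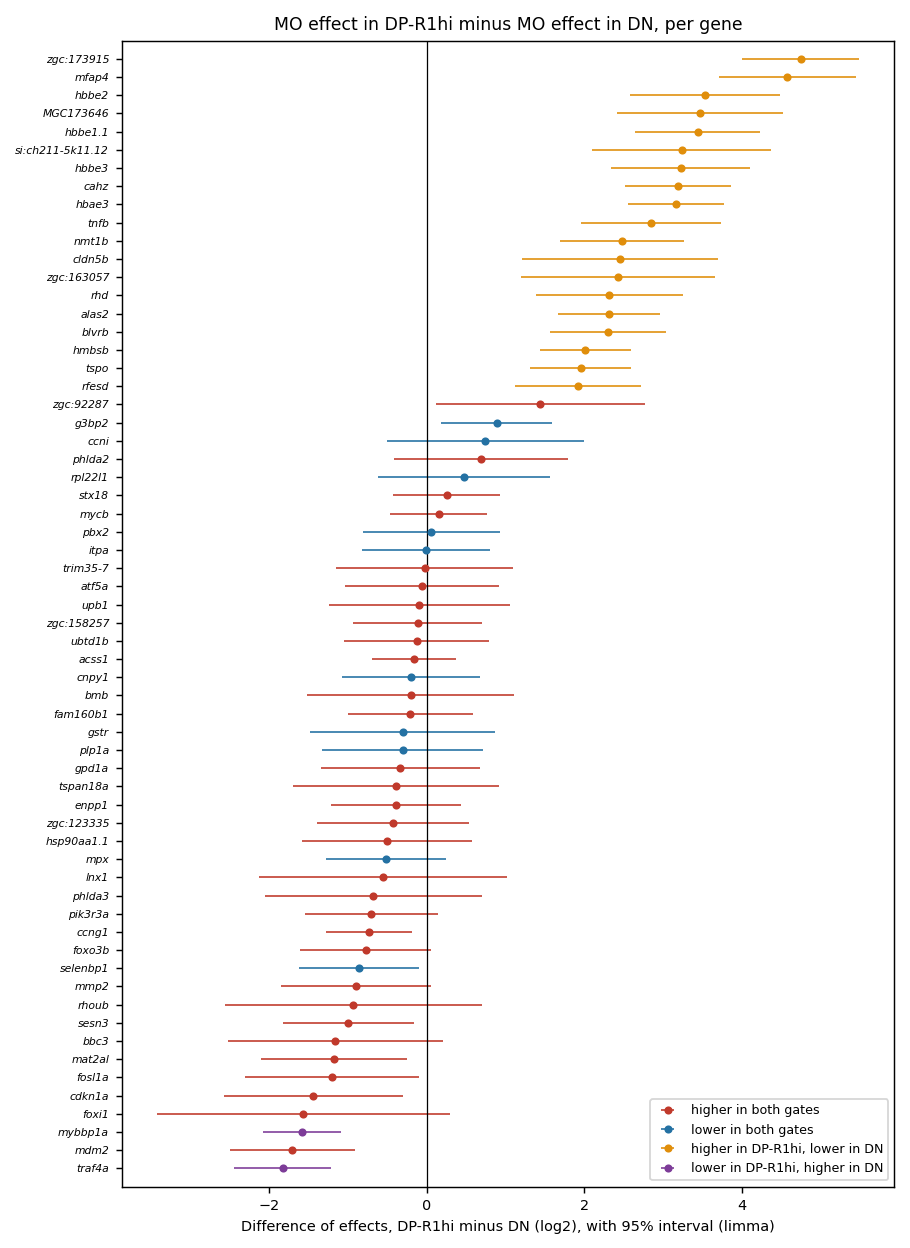
The difference of morpholino effects, DP-R1hi minus DN, for 62 of the 63 genes with its 95% interval from limma, on the log2 scale and ordered by size. The 19 genes with opposite directions lie at the top, from 1.92 for *rfesd* to 4.75 for zgc:173915, and *traf4a*, *mdm2* and *mybbp1a* lie at the bottom.

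The 10 genes lower in MO in both gates had a median effect of -1.37 in DP-R1hi and -1.21 in DN, and none of their differences passed. 4 of the 10 had the smaller effect in DP-R1hi. *rpl22l1*, a paralogue of a ribosomal protein gene, was at 47.9 to 104 CPM in MO-DP-R1hi and 169 to 257 CPM in Wt-DP-R1hi, and at 44.8 to 106 CPM in MO-DN and 188 to 412 CPM in Wt-DN, with 0.48 (95% interval -0.61 to 1.56). *g3bp2*, a stress granule protein, was at 11 to 15.3 CPM in MO-DP-R1hi and 20.5 to 25.4 CPM in Wt-DP-R1hi, and at 16.8 to 27.7 CPM in MO-DN and 73.2 to 78.9 CPM in Wt-DN, with 0.89 (95% interval 0.19 to 1.59, unadjusted p = 0.0170, limma). *selenbp1*, a selenium-binding protein, had the opposite order, since its effect was larger in DP-R1hi. It was at 26.4 to 38.8 CPM in MO-DP-R1hi and 116 to 128 CPM in Wt-DP-R1hi, and at 2.92 to 4.72 CPM in MO-DN and 7.08 to 11.07 CPM in Wt-DN, with -0.86 (95% interval -1.62 to -0.10, unadjusted p = 0.0296, limma). *ccni*, cyclin I, differed by 0.74 (95% interval -0.51 to 1.99) and had MO-DP-R1hi values of 45.4 to 124 CPM, which overlapped the Wt-DP-R1hi values of 116 to 150 CPM. *cnpy1* and *gstr*, a glutathione S-transferase, differed by -0.20 (95% interval -1.07 to 0.67) and -0.31 (95% interval -1.48 to 0.86). *plp1a*, which codes for the myelin proteolipid protein, was the 1 neural gene of the 63. It had 0.405, 1.07 and 0.617 CPM in MO-DP-R1hi, against 2.13, 7.59 and 2.90 CPM in Wt-DP-R1hi. DN cells had 135, 204 and 129.7 CPM in MO-DN, against 346, 382 and 322 CPM in Wt-DN. The ratio of means was 0.166 in DP-R1hi and 0.447 in DN, yet on the log2(CPM + 1) scale the difference was -0.31 (95% interval -1.33 to 0.72), because the DP-R1hi values were within a few CPM of 0.

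Levels in the 2 gates of non-injected embryos differed for most of the 63 genes. Between Wt-DP-R1hi and Wt-DN, 42 passed at an adjusted p under 0.05 (66.7%), 34 higher in Wt-DP-R1hi (54%) and 8 lower (12.7%), by limma with adjustment over 789 genes. At the top stood *mpx* with 8.55 ± 0.25 (SE), *rfesd* with 5.56 ± 0.26 (SE), *alas2* with 5.45 ± 0.21 (SE) and *nmt1b* with 5.28 ± 0.26 (SE). The lowest were *plp1a* with -6.21 ± 0.34 (SE), *hsp90aa1.1* with -3.27 ± 0.35 (SE), *phlda3* with -2.56 ± 0.45 (SE) and *gpd1a* with -2.24 ± 0.33 (SE). Among these, the blood genes *mpx* and *alas2* were higher in the reporter-positive gate. The glial gene *plp1a* and the muscle-rich chaperone gene *hsp90aa1.1* were higher in the reporter-negative one. *rfesd*, *nmt1b*, *phlda3* and *gpd1a* are on none of the blood or neural lists.

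All 19 genes that were higher in MO-DP-R1hi and lower in MO-DN were higher in Wt-DP-R1hi than in Wt-DN, with baseline differences of 1.64 to 5.56. The genes that moved the same way were spread to both sides, 14 higher in Wt-DP-R1hi, 8 lower and 20 not passed. The Wt libraries enter both the baseline and the difference of effects, so the 2 are not independent. *mpx* had the highest baseline of all and *selenbp1* one of 3.6, and both were lower in MO in both gates. *acss1*, *enpp1*, *phlda2* and *trim35-7* had baselines of 2.03 to 3.01 and were higher in MO in both gates.

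**Figure D5:**
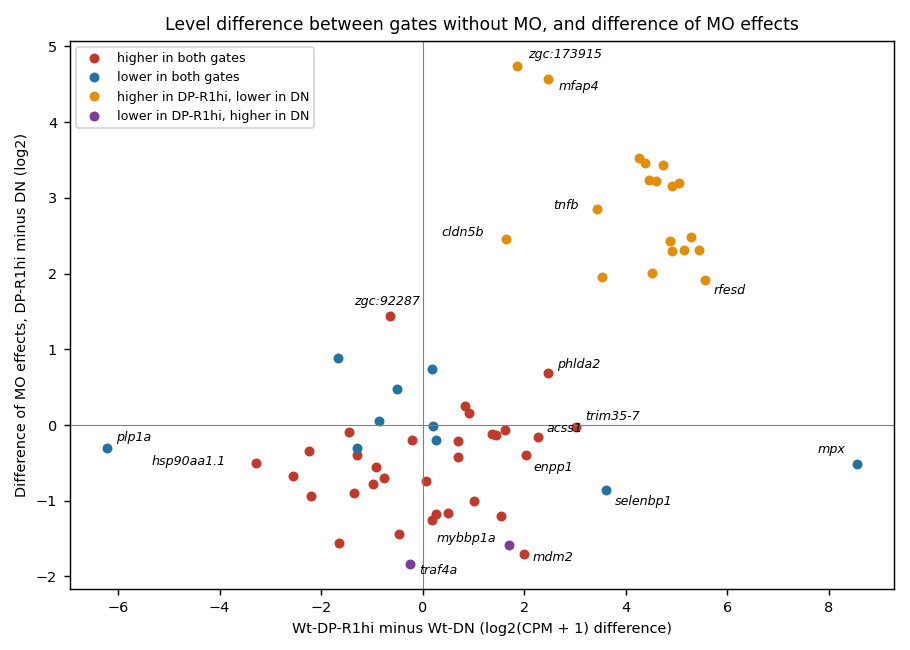
Each point is 1 of the 63 genes, placed by its level difference between the gates without morpholino (Wt-DP-R1hi minus Wt-DN, horizontal axis) and by its difference of morpholino effects (DP-R1hi minus DN, vertical axis), both in log2 units. The 19 genes with values above 0 in DP-R1hi and below 0 in DN lie to the right of 0 with differences of 1.92 to 4.75, and *mpx* lies at the far right near 0 on the vertical axis.

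Of the 63 genes, 25 were also in the table of Wt-DP-R1hi against Wt-DP-R1lo, 6 higher and 19 lower in Wt-DP-R1hi, where 1099 of 2732 genes were higher. That table was normalised separately and shares its Wt-DP-R1hi libraries with the comparison above, so its values are given only beside it. *mfap4* averaged 40.5 ± 15.8 CPM in Wt-DP-R1hi and 372 ± 73.1 CPM in Wt-DP-R1lo (SD, n = 3 each). zgc:173915 averaged 24.8 ± 4.34 CPM in Wt-DP-R1hi and 659 ± 129 CPM in Wt-DP-R1lo, and *tnfb* averaged 86.2 ± 26.2 CPM and 561 ± 120.2 CPM in these 2 gates (SD, n = 3 each). *cldn5b* averaged 13.8 ± 4.66 CPM in Wt-DP-R1hi and 157 ± 60.1 CPM in Wt-DP-R1lo. These 4 genes, which were higher in MO-DP-R1hi than in Wt-DP-R1hi, were thus lower in Wt-DP-R1hi than in Wt-DP-R1lo. Most other genes of that table that were higher in MO-DP-R1hi were also lower in Wt-DP-R1hi than in Wt-DP-R1lo. Among them were the DNA damage response genes *sesn3* (-2.14 on the log2 scale), *phlda3* (-1.28), *bbc3* (-1.27) and *foxo3b* (-1.13). The values of *phlda3* and *bbc3* overlapped between these gates. The exceptions were *mdm2*, *mycb*, *phlda2* and *trim35-7*, higher in Wt-DP-R1hi than in Wt-DP-R1lo by 0.52, 1.27, 0.66 and 0.77 on the log2 scale. *mybbp1a*, which was lower in MO-DP-R1hi than in Wt-DP-R1hi, averaged 249 ± 34 CPM in Wt-DP-R1hi and 57.8 ± 9.03 CPM in Wt-DP-R1lo. None of the globin and haem genes of the 63 was in that table.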

How the data were processed

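Reads were trimmed (Trimmomatic 0.32), mapped with STAR to the Zv10 genome named in the methods, and summarised by gene with featureCounts before the authors' edgeR tests. The deposited values used here are the authors' CPM, read counts over each library's effective size, in which the 12 morpholino libraries share one normalisation. In the deposited log2 columns stand a fold change and the mean log2 CPM, in the deposited score column a likelihood ratio and in the deposited p-value columns its p-value and false discovery rate, all by the authors. Except for the mean log2 CPM, which was compared between tables, none of these was used. The sources used here do not state stranded counting, so overlapping and antisense genes cannot be separated.

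Members are the gene symbols in both morpholino tables. Members and gene lists were chosen with earlier results of these data known. log2(CPM + 1) was fitted with limma 3.58.1 in R 4.3.3 (lmFit, eBayes with a mean trend, two-sided) over the 789 genes of either table, with genes of 1 table missing in the other gate, and p-values were adjusted by Benjamini and Hochberg over 789. Within-gate standard errors come from fits to each table. No filter on low values was applied, and ratios are of mean CPM. Every listed value was a whole multiple of 1 step per library (100% within 0.01 of a step), taken as 1 read, and these reads were refitted with limma's voom over the 63 genes as an alternative chosen after seeing the data. No negative binomial model was fitted, because the tables list too few low values for the criterion set for accepting recovered reads. The voom refit used the same reads without meeting that criterion. The procedure was tested on simulated data of 63 genes. The difference of effects was called for 7 of 7 genes at a true size of 4, 5 of 7 at 2, 1 of 7 at 1 and 0 of 42 at 0. A difference that did not pass is therefore not shown to be absent. Genes given by library were the 12 with the largest and the 6 with the smallest difference of effects (these among genes with a mean absolute effect of at least 1), the members on the DNA damage response, erythroid and myeloid lists, and the 4 highest and 4 lowest at baseline, except that *traf4a* and *mybbp1a* were added after their values were seen. 1 of the 63 genes is counted in totals but not reported here by name, and was left out of its list. Names came from RefSeq (assembly GRCz12tu) for 62 of the 63 genes, and the morpholino sequence from the study's list of oligomers. Alternatives were the pseudocount, a minimum mean CPM of 10, scaling without erythroid genes, single libraries left out, a replicate block, no variance trend, a fit over the 63 genes alone, weights by gate and adjustment over 30000 tests.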

Additional observations from a re-analysis of the deposited data

Results flagged for a closer look

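The difference of morpholino effects between the gates passed the limma test for 23 genes, 22 of which are given here. For all of these 22 but *mdm2* the sign was fixed by being listed in opposite directions in the 2 tables, so the values describe sizes and nothing is read from the pass. The difference of effects, DP-R1hi minus DN on the log2(CPM + 1) scale, was largest for zgc:173915 (4.75) and *mfap4* (4.57). Among globin genes it was 3.53 for *hbbe2*, 3.44 for *hbbe1.1*, 3.24 for si:ch211-5k11.12, 3.23 for *hbbe3*, 3.16 for *hbae3* and 2.43 for zgc:163057. Other red cell and haem genes had 3.19 (*cahz*), 2.31 (*alas2*), 2.31 (*rhd*), 2.30 (*blvrb*), 2.01 (*hmbsb*) and 1.95 (*tspo*). MGC173646 had 3.46, *tnfb* 2.85, *nmt1b* 2.48, *cldn5b* 2.45 and *rfesd* 1.92. Negative differences were found for *traf4a* (-1.83), *mdm2* (-1.70) and *mybbp1a* (-1.59).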

How the results depend on the processing

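The count of genes with a passing difference of effects, 23, was 16 with adjustment over 30000 tests, 19 with voom on recovered reads, chosen after seeing the data, 21 to 23 under the other full-data settings and 19 to 23 with single libraries left out. The baseline count of 42 was 30 over 30000 tests, 35 with voom, 39 to 45 otherwise and 34 to 43 with libraries left out. All 42 genes kept the same direction in both gates where they were fitted. The count of 2 passing genes among those moving the same way was 1 without the variance trend, 1 with the listed and the 2 further globin genes left out of the scaling, 0 over 30000 tests and 0 to 3 with libraries left out, being 0 without Wt-DP-R1hi replicate 2, MO-DN replicate 1 or Wt-DN replicate 1 and 1 without Wt-DP-R1hi replicate 1. In all, 16 of the 23 genes passed under every setting. All 16 were listed in opposite directions in the gates, so nothing is read from these passes, and *mdm2* was not among them.

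The sign of the difference changed under some setting for 17 genes, none of which had passed. It became positive at a pseudocount of 0.25 for *gpd1a* (0.0871), *phlda3* (0.00544) and *upb1* (0.364), and at 4 for *atf5a* (0.305), *plp1a* (0.420), *trim35-7* (0.442), *ubtd1b* (0.167) and zgc:158257 (0.0155). It did so with erythroid genes left out of the scaling for *acss1* (0.000857), *atf5a* (0.102), *itpa* (0.150), *trim35-7* (0.139), *ubtd1b* (0.0336), *upb1* (0.0952) and zgc:158257 (0.0470), and with the 2 globin genes left out as well for *acss1* (0.0383), *atf5a* (0.139), *bmb* (0.00921), *fam160b1* (0.000307), *itpa* (0.186), *trim35-7* (0.176), *ubtd1b* (0.0707), *upb1* (0.136) and zgc:158257 (0.0843). With voom it became positive for *foxi1* (0.349), *gpd1a* (0.343), *lnx1* (0.173), *phlda3* (0.414) and *upb1* (0.586). With single libraries left out, the difference ranged over -0.255 to 0.220 for *atf5a*, -0.708 to 0.353 for *bmb*, -0.448 to 0.0271 for *cnpy1*, -0.334 to 0.0172 for *fam160b1*, -0.610 to 0.210 for *gstr*, -0.182 to 0.266 for *itpa*, -0.289 to 0.268 for *pbx2*, -0.603 to 0.125 for *plp1a*, -0.308 to 0.438 for *trim35-7*, -0.295 to 0.0939 for *ubtd1b*, -0.466 to 0.177 for *upb1* and -0.329 to 0.0955 for zgc:158257. Both scalings raise levels most in MO-DP-R1hi, which by arithmetic moves the differences upwards and makes small negative ones positive. The cause of the other sign changes was not tested.

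Replicate numbers were not taken as pairs, because the labels do not tie them to an experiment. The main fit therefore treated the libraries as independent, although each clutch was divided between MO and Wt. Of 18 correlations of same-numbered libraries (r from -0.316 to 0.431) 11 were over 0.1, which does not settle whether equal numbers share an experiment. With the replicate number as a block, 23 differences, 2 among genes moving the same way, 45 baseline differences, 670 genes in DP-R1hi and 176 in DN passed, against 661 and 176 without it. The within-gate counts were 587 to 638 and 166 to 174 with libraries left out. With 3 libraries a group, the 95% interval of the difference had a median width of 1.76 log2 units over the 63 genes, which sets how small a difference could be seen.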
